A study of Mus musculus with 5 samples.

Results

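C1qb, Apoe, Tyrobp and Fcer1g, genes best known from macrophages and microglia, were followed through 692 single cells that had been sorted from the brain as T cells. The 4 genes were chosen by name from the 2926 mouse genes of the deposited table, where each has 1 row, C1qb on chromosome 4, Apoe and Tyrobp on chromosome 7 and Fcer1g on chromosome 1. The cells came from wildtype C57BL/6 mice given a photothrombotic stroke (light on the skull clots vessels that hold a photosensitive dye), and were taken from the injured hemisphere on day 14. Trained mice had had running wheels from day 2, and untrained mice had not. After a 37% Percoll step the cells carrying CD45 and CD3 stain went singly into 384-well plates for SORT-seq, a plate-based single-cell RNA sequencing assay. Untrained samples 1 and 2 held 144 and 190 cells, and trained samples 1, 2 and 3 held 66, 124 and 168. The labels do not say how many animals a sample holds, so the spread behind each p-value is that between samples and may be technical.

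C1qb codes for a chain of C1q, the molecule that starts the classical complement cascade and that in the brain is made mainly by microglia and macrophages. Apoe codes for a lipid carrier of astrocytes and of activated microglia. Tyrobp (DAP12) and Fcer1g (the Fc receptor gamma chain) are short transmembrane adaptors whose cytoplasmic ITAM motifs recruit Syk-family kinases. In microglia DAP12 signals for TREM2 and the gamma chain for Fc receptors. Natural killer cells use both adaptors for activating receptors, and DAP12 pairs there with receptors that contain CD94, the product of Klrd1.

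All 4 genes scored above 1 together in 20 cells, 15 of them in 1 sample, and exactly 1 gene did so in 68 cells. The promoters of C1qb, Apoe and Fcer1g are shown because of this partial overlap. They are the 250 bases before the RefSeq start (GRCm38.p6), each on the minus strand and written 5′ to 3′, at chr4:136886201-136886450, chr7:19699189-19699438 and chr1:171234350-171234599. For Apoe, with 3 listed starts, the most upstream one is shown. Capitals mark GAGGAA, the core of sites of the myeloid factor PU.1, which was searched together with its reverse complement TTCCTC.
C1qb: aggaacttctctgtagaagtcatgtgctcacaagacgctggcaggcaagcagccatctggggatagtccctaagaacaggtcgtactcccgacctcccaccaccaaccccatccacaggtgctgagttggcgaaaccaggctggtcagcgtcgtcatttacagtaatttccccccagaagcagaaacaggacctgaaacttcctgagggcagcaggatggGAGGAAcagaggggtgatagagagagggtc
Apoe: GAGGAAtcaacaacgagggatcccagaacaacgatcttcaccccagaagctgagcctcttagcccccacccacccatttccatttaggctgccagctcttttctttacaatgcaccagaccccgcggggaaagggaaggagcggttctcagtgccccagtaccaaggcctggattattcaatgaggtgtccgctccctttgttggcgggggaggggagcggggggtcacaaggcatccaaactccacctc
Fcer1g: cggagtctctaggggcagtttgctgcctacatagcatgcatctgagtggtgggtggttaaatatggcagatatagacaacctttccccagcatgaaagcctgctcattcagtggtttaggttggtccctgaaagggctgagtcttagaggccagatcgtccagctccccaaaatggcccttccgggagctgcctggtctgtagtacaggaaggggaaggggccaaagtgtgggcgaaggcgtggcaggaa
The C1qb window had 1 match, 30 bases before the start. The first Apoe window had 1 match at its far end, 250 bases before the start. Of the Apoe windows not shown, the second had 0 matches and the third had 1, 132 bases before its start. The Fcer1g window had 0 matches to these letters. Of all 32851 promoter windows of this length 23.3% held a match, as did at least 1 window of 25.9% of 27025 genes. A match is thus not particular to these genes. A promoter was listed for 3 of the 4 genes and none for Tyrobp, so that of Tyrobp was not searched.

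Every value below is a deposited score, not a count. Scores ran from -2.12 to 3.74, and 72.7% were below 0. Untrained sample 2 stood apart: the highest score of 1335 rows sat at 1 ceiling, 2.52, while the other samples had 0 such rows. Its median SD between cells was 0.728, against 0.370 to 0.515 in the others. Pairs of samples shared between 29 and 92 well names, but 0 cells had the scores of another cell. Depth per sample is unknown. Ranges of scores, none of which uses the 4 genes, served to sort the cells. T-gated cells (344) had a mean score of 7 T cell genes above 0 and were not lysosomal-gated. Lysosomal-gated cells (51) had a mean score of the lysosomal genes Cst3, Ctss, Ctsd and Ctsb above 1, and 297 cells lay in neither range.

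C1qb scored above 1 in 62 of the 692 cells, and 41 of these were in untrained sample 2. Untrained sample 1 had 4 such cells (2.78%, 95% Wilson interval 1.09 to 6.92), untrained sample 2 had 41 (21.6%, 16.3 to 28.0), and trained samples 1, 2 and 3 had 4 (6.06%), 8 (6.45%) and 5 (2.98%). Untrained sample 2 was above every other sample and untrained sample 1 below every trained one, so the trained samples lay between the untrained ones. Apoe scored above 1 in 55 cells. Untrained samples had 4 (2.78%) and 31 (16.3%) of them, trained samples 4 (6.06%), 8 (6.45%) and 8 (4.76%), again between the untrained ones.

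The adaptor genes had the same high sample but differed in the others. Tyrobp scored above 1 in 48 cells, 3 (2.08%) and 33 (17.4%) in untrained and 3 (4.55%), 4 (3.23%) and 5 (2.98%) in trained samples. Fcer1g had the most such cells, 71, with 10 (6.94%) and 33 (17.4%) in untrained and 8 (12.1%), 6 (4.84%) and 14 (8.33%) in trained samples. Only for Fcer1g did a trained sample fall below untrained sample 1. The intervals cover counting error only. The cut at 1 crossed no dense part of the scores: between 0.9 and 1 lay 3 cells for C1qb, 4 for Apoe, 4 for Tyrobp and 6 for Fcer1g, and between 1 and 1.1 lay 1, 2, 3 and 4.

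**Figure D1:**
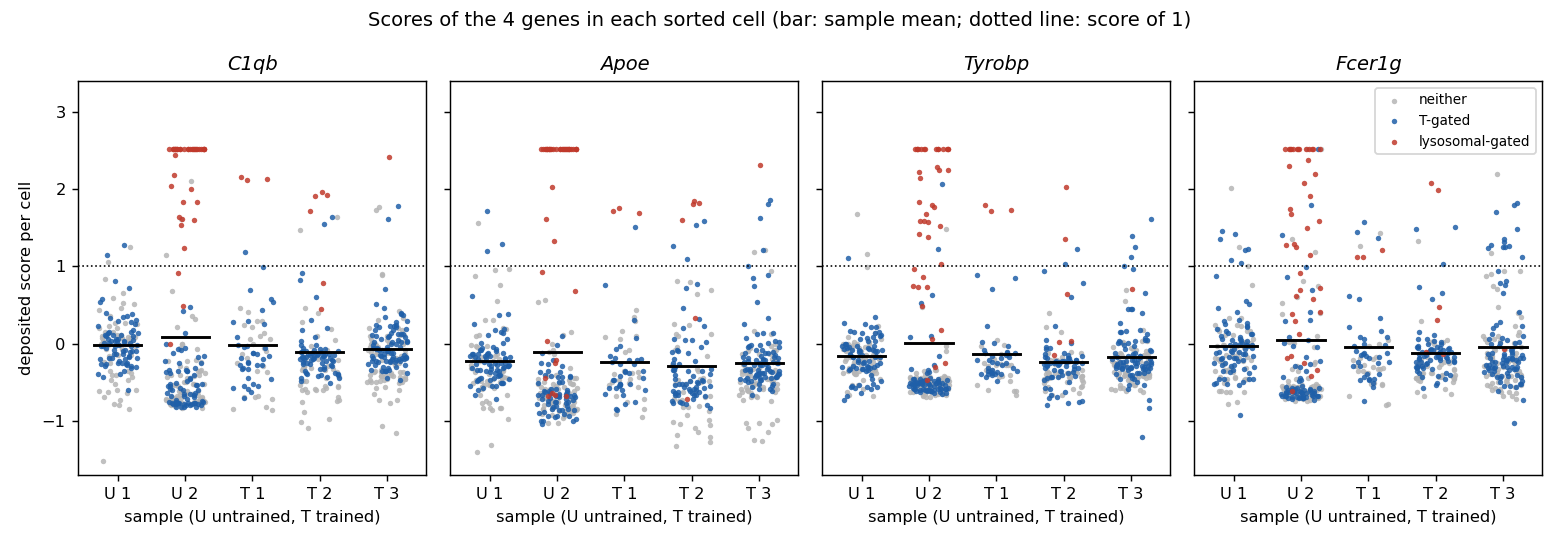
Deposited score of C1qb, Apoe, Tyrobp and Fcer1g (vertical axis) in each of the 692 cells of the 5 samples (horizontal axis, U untrained, T trained), coloured by score range, with a bar at each sample's mean. For C1qb, Apoe and Tyrobp most cells above the dotted line at 1 are lysosomal-gated (46 of 62, 39 of 55 and 35 of 48), most of these in untrained sample 2 (38, 31 and 30), where scores stop at 2.52. Fcer1g also has 28 T-gated cells above the line.

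In untrained sample 2 nearly all cells above 1 for any of the 4 genes had low scores of T cell genes. The other samples were mixed. The T cell marker score, the mean of Cd3d, Cd3e, Cd3g, Cd2, Cd247 (the zeta chain), the kinase gene Lck and Thy1, had a median of -0.419 in the 62 cells above 1 for C1qb and was above 0 in 8 of them. For Apoe the median was -0.350, with 14 of 55 cells above 0, and for Tyrobp -0.420, with 10 of 48. For Fcer1g it was -0.172, with 28 of 71 cells above 0. In cells at or below 1 the medians lay between 0.0143 and 0.0551 for the 4 genes. These pooled values rest on untrained sample 2, where 0 of 41 cells for C1qb, 0 of 31 for Apoe, 2 of 33 for Tyrobp and 3 of 33 for Fcer1g had a T cell marker score above 0. In the other 4 samples together 8 of 21, 14 of 24, 8 of 15 and 25 of 38 did, with medians of -0.258, 0.0333, 0.0524 and 0.149. Of the cells at or below 1 in these samples, 53.9% (Fcer1g) to 55.5% (C1qb) had a T cell marker score above 0, with medians of 0.0551 to 0.0712. Outside untrained sample 2 only C1qb had a minority of its cells above 1 with a T cell marker score above 0. In the 46 lysosomal-gated cells above 1 for C1qb each of the 7 T cell genes had a median below 0, from -0.630 for Thy1 to -0.375 for Cd247. These RNA scores were low for cells sorted by CD3 stain, which marks protein, and 38 of the 46 cells were in untrained sample 2. Low scores were not particular to them. The 297 cells in neither range also had all 7 medians below 0, from -0.474 for Lck to -0.255 for Cd247. Over all 692 cells the 7 medians were below 0 too, from -0.305 for Cd3g to -0.0126 for Thy1. In the 7 T-gated cells above 1 for C1qb 6 of the 7 T cell genes had medians above 0, as the gate favours.

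The lysosomal-gated cells held 46 of the 62 cells above 1 for C1qb (74.2%), 39 of 55 for Apoe (70.9%), 35 of 48 for Tyrobp (72.9%) and 31 of 71 for Fcer1g (43.7%). Without untrained sample 2 they held 8 of 21, 8 of 24, 5 of 15 and 5 of 38. Lysosomal-gated cells numbered 0 and 41 in untrained and 3, 6 and 1 in trained samples, so their values rest mainly on 1 sample. In the 41 cells of untrained sample 2 the mean scores were 2.18 for C1qb, 1.79 for Apoe, 1.64 for Tyrobp and 1.41 for Fcer1g. In trained sample 1, with 3 cells, they were 2.13, 1.72, 1.75 and 1.15, and in trained sample 2, with 6 cells, 1.46, 1.11, 0.654 and 0.769. The single such cell of trained sample 3 scored 2.42 for C1qb, 2.32 for Apoe, 0.703 for Tyrobp and -0.0698 for Fcer1g. C1qb was thus the highest of the 4 in each of the 4 samples with such cells. Scores are not lengths or molecules, so this order is one of scores and not of transcript levels. In untrained sample 2 the ceiling held 27 cells for C1qb, 28 for Apoe, 14 for Tyrobp and 16 for Fcer1g, so scores there are cut off.

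The measured markers did not name these cells. None of the 12 listed microglia markers or 10 dendritic cell markers was measured, nor any of the 7 B cell or 7 endothelial and pericyte markers. Of 19 macrophage and monocyte markers 4 were measured. Grn, the progranulin gene, had a mean of 1.61 in lysosomal-gated cells, and the monocyte genes Ccr2, Plac8 and Ly6c2 had means of -0.163, -0.291 and -0.380. The neutrophil gene Cxcr2 had a mean of -0.372, and the oligodendrocyte genes Mbp and Cnp of -0.159 and -0.0217. In T-gated cells Mbp and Cnp had means of 0.260 and 0.176.

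High scores of the 4 genes fell mostly together in single cells of untrained sample 2. In each other sample most cells above 1 were so for 1 gene only. All 4 were above 1 in 20 cells, 15 in untrained sample 2, 3 in trained sample 1 and 1 each in trained samples 2 and 3. Of these 20 cells 19 were lysosomal-gated, and the cell of trained sample 3 was T-gated with a T cell marker score of 0.0524. Another 16 cells were above 1 for 3 of the genes, all in untrained sample 2 and all lysosomal-gated. Exactly 1 gene was above 1 in 68 cells, of which 1 was lysosomal-gated and 44 were T-gated. By sample these were 15 and 12 in untrained and 7, 10 and 24 in trained samples. Exactly 2 genes were above 1 in 3 and 9 cells of untrained and 0, 6 and 2 of trained samples. C1qb and Apoe shared 41 cells, 66.1% of the C1qb cells and 74.5% of the Apoe cells, and 30 of the 41 were in untrained sample 2. Tyrobp and Fcer1g shared 26, 54.2% of the Tyrobp cells and 36.6% of the Fcer1g cells, and 19 of the 26 were in untrained sample 2. In T-gated cells the overlap was small, with 2 shared cells of 10 for Tyrobp and 28 for Fcer1g. Untrained sample 1, with no lysosomal-gated cell, had 0 cells above 1 for both C1qb and Apoe among its 4 and 4.

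**Figure D2:**
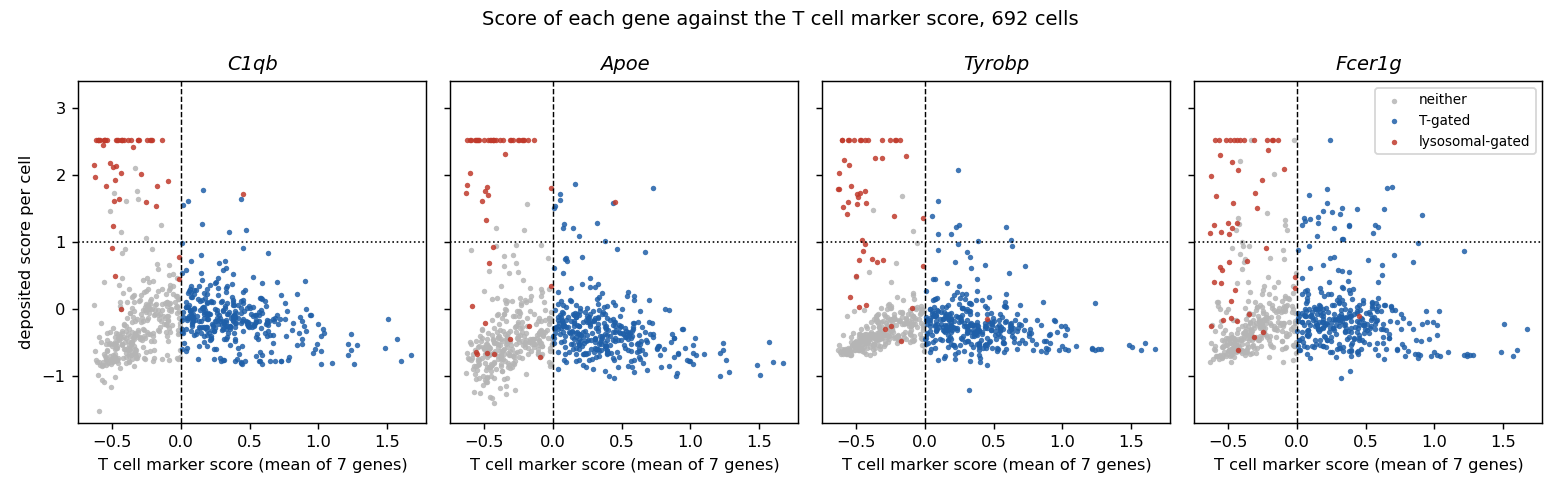
Deposited score of each gene (vertical axis) against the T cell marker score, the mean of 7 genes (horizontal axis), in 692 cells coloured by score range. Of the cells above the dotted line at 1, 8 of 62 for C1qb, 14 of 55 for Apoe, 10 of 48 for Tyrobp and 28 of 71 for Fcer1g lie right of 0, and without untrained sample 2 these are 8 of 21, 14 of 24, 8 of 15 and 25 of 38.

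Across all cells of a sample the gene closest to C1qb was Tyrobp. Likeness was the Spearman correlation of scores over the cells of 1 sample, averaged over the 5 samples, and it is a description, since the cells share a library and the scores were processed together. For C1qb and Tyrobp it was 0.583 (0.489 to 0.720 over samples), the first of 2925 genes, followed by Cst3 (0.558), Egr1 (0.543), Rhob (0.529) and Grn (0.520). Apoe was also most like Tyrobp (0.546), then C1qb (0.496), Itm2b (0.489), Rhob (0.485) and Ctsb (0.484). Tyrobp was most like Rhob (0.648), Egr1 (0.644), Ctsd (0.609), Lamp2 (0.609) and Fcer1g (0.589). Fcer1g was most like Tyrobp (0.589), then Rhob (0.512), Egr1 (0.497), Ctsa (0.494) and Rgs10 (0.466).

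Within T-gated cells the 4 genes kept part of this likeness. Tyrobp was again the first gene for Fcer1g, at 0.449 (0.218 to 0.633), and for Apoe, at 0.419, and Apoe was the first for C1qb, at 0.401. Fcer1g was only the 71st gene for C1qb (0.179) and the 311th for Apoe (0.140). The genes after Tyrobp in the order for Fcer1g were the interleukin 4 receptor gene Il4ra (0.331), Egr1 (0.321), Xcl1 (0.296), a chemokine of cytotoxic lymphocytes, and Rhob (0.294).

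Among T-gated cells, those that scored above 1 for Tyrobp or Fcer1g were nearly all cytotoxic-high, that is, above 0 for the mean of Nkg7, a granule membrane protein, the chemokine gene Ccl5 and the cathepsin gene Ctsw. All 10 T-gated cells above 1 for Tyrobp were cytotoxic-high, as were 243 of the other 334 (72.8%). For Fcer1g 26 of 28 were (92.9%), and 227 of the other 316 (71.8%). C1qb and Apoe did not share this, with 4 of 7 and 9 of 13 cells cytotoxic-high. Of the 2802 genes with at least 10 T-gated cells above 1, 0.642% had all of them cytotoxic-high and 3.32% had at least the share of Fcer1g. Tyrobp had the fewest cells that this count allows, 10, and genes with more cells have all of them cytotoxic-high less easily. The 0.642% is thus not matched to Tyrobp in number of cells. The median over these genes was 78.6%.

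By sample, Fcer1g was above 1 in 9.26%, 6.00%, 10.7%, 5.45% and 18.2% of cytotoxic-high cells of untrained 1 and 2 and trained 1, 2 and 3. In cytotoxic-low cells it was so in 8.33% (2 of 24 cells) of untrained sample 1 and in 0 cells of the other 4 samples, which held 20, 9, 14 and 24. The share was higher in cytotoxic-high cells of 5 of 5 samples, by a mean of 8.26 points ± 6.54 (SD, n = 5, two-sided exact permutation of signs p = 0.0625, the smallest that 5 samples allow, 0.25 adjusted over the 4 genes). In untrained sample 1 the classes nearly matched. A higher share in 5 of 5 samples was seen for 9.24% of 2912 genes.

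Tyrobp was above 1 in 1.85%, 4.00%, 0%, 3.64% and 7.58% of the cytotoxic-high cells of the same samples, and in 0 of the 91 cytotoxic-low cells. The share was higher in 4 of 5 samples, by 3.41 points ± 2.82 (SD, n = 5, exact permutation p = 0.125, adjusted p = 0.25), and 34.8% of genes were higher in at least 4 samples. Of its 10 cells 5 were in trained sample 3, which also held 12 of the 28 for Fcer1g. C1qb and Apoe had a higher share in 2 of 5 samples each, with mean differences of -3.73 and -1.06 points (exact permutation p = 0.5 and 0.75).

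**Figure D3:**
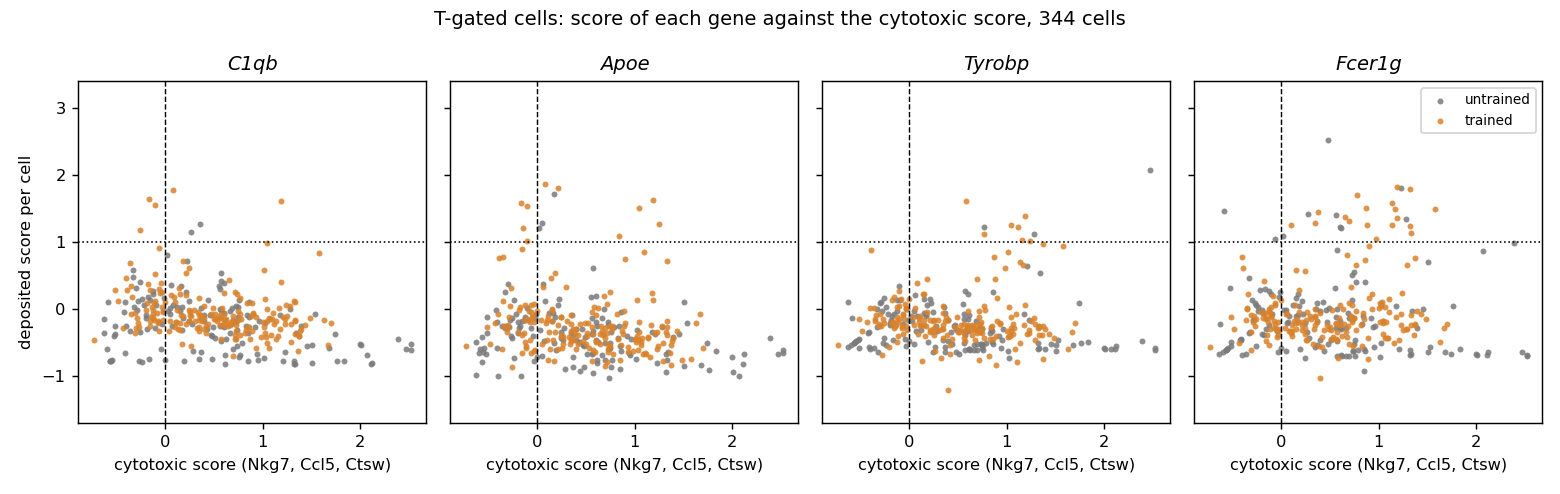
Deposited score of each gene (vertical axis) against the cytotoxic score, the mean of Nkg7, Ccl5 and Ctsw (horizontal axis), in the 344 T-gated cells coloured by training. Above the dotted line at 1, all 10 cells for Tyrobp and 26 of 28 for Fcer1g lie right of 0, against 4 of 7 for C1qb and 9 of 13 for Apoe.

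**Figure D4:**
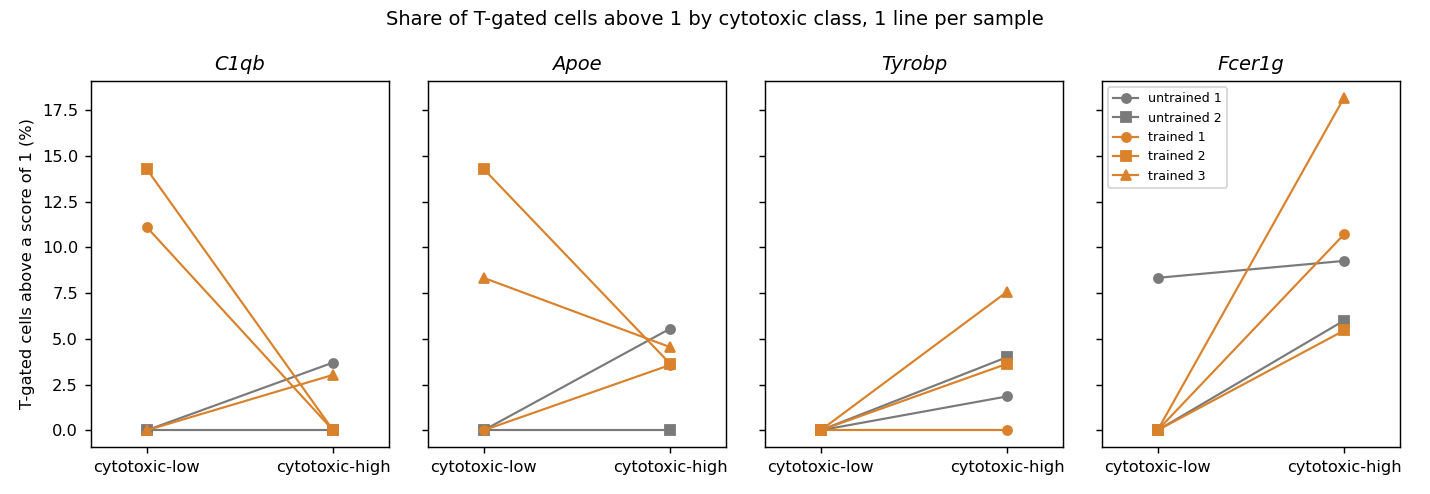
Share of T-gated cells above a score of 1 (vertical axis, percent) in the cytotoxic-low and the cytotoxic-high cells of each sample, joined by a line. All 5 lines rise for Fcer1g, 4 of 5 rise for Tyrobp, and 2 of 5 rise for C1qb and for Apoe.

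Mean scores did not separate the 2 classes for any of the 4 genes. Fcer1g had a mean of -0.0462 ± 0.159 (SD, n = 5) in cytotoxic-high and -0.153 ± 0.164 in cytotoxic-low cells. It differed by 0.107 ± 0.0574 (SE, limma adjusted p = 0.321), and was higher in 4 of 5 samples. With medians over cells in place of means its difference was -0.0315, in the other direction. Tyrobp differed by -0.0204 ± 0.0582 (adjusted p = 0.881). C1qb and Apoe were lower in cytotoxic-high cells of 5 of 5 samples, by 0.183 ± 0.0644 and 0.146 ± 0.0608, and did not pass (adjusted p = 0.132 and 0.197). None of the 4 genes passed, where 4.74% of 2912 genes did, 134 higher and 4 lower, and 2.82% were lower in 5 of 5 samples. Without 1 sample in turn 39 to 102 genes passed, and 0 with medians over cells.

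Natural killer type receptors were the list with the highest share of tested genes that rose in cytotoxic-high cells. Of 5 measured of 22, 4 passed, with a median difference of 0.342 against 0.0423 over all genes. They were Klrd1 (CD94, 0.461 ± 0.0708, adjusted p = 0.00399), the interleukin 2 and 15 receptor gene Il2rb (0.440), Klrk1 (NKG2D, 0.342) and the kinase gene Txk (0.243). In the list of ITAM adaptors, Fc receptors and kinases 1 of 8 tested genes passed, by 0.378 ± 0.0626 (adjusted p = 0.00431). It was Hcst (DAP10), an adaptor of NKG2D that is listed there but is not an ITAM adaptor. Of the 10 cytotoxic effectors and regulators tested 5 passed, Ly6c2, Id2, Xcl1, Cst7 and Runx3. Of the 3 measured complement genes and the 4 of lipid handling 0 passed, with medians of 0.142 and -0.0280. Of the 4 macrophage and monocyte markers 2 passed as higher, Ly6c2 and Plac8 (0.277 ± 0.0602), genes that activated T cells also express, and Grn and Ccr2 did not (-0.0272 and 0.0327), with a list median of 0.155. Cd8a was higher (0.530 ± 0.0655) and Cd4 lower (-0.668 ± 0.113) in cytotoxic-high cells, both past the threshold and both in 5 of 5 samples. With medians over cells none of these passed.

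T-gated cells above 1 for Fcer1g had higher scores of Klrd1 in each of the 5 samples. Their Klrd1 means were 0.385, 1.55, 0.490, 1.59 and 0.966 in untrained 1 and 2 and trained 1, 2 and 3, on 7, 3, 3, 3 and 12 cells. The other T-gated cells had 0.0786, 0.158, 0.215, 0.158 and 0.0237. A higher mean in 5 of 5 samples was seen for 2.61% of genes. With at least 5 cells per class only untrained sample 1 and trained sample 3 entered the fit, where 2 of 2914 genes passed (0.0686%): Klrd1, by 0.624 ± 0.114 (SE, limma adjusted p = 0.000139), and Ly6a, an interferon-inducible antigen, which was lower by 0.504 ± 0.114 (adjusted p = 0.0151). The SE in that fit, 0.114, was shared over all genes, so its p-values do not reflect how far the 2 samples differed for a gene. Klrd1 was 0.385 against 0.0786 in untrained sample 1 and 0.966 against 0.0237 in trained sample 3. With at least 3 cells and 5 samples 0 passed (177, or 6.07%, at an unadjusted p under 0.05), and Klrd1 had the smallest p (0.871 ± 0.181, unadjusted p = 0.00062, adjusted p = 0.717). There Il2rb differed by 0.569 ± 0.180, Tyrobp by 0.357 ± 0.145 and Ly6a by -0.359 ± 0.104 (adjusted p = 0.717 each), while C1qb and Apoe differed by 0.0738 ± 0.0931 and -0.0806 ± 0.103 (adjusted p = 0.836 and 0.840).

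Cd247, whose zeta chain pairs with T cell receptors as the gamma chain can, had means of 0.207, 0.0315, -0.232, -0.517 and -0.0416 in the cells above 1 for Fcer1g of the 5 samples. In the other T-gated cells it had 0.225, 0.436, 0.0372, 0.237 and 0.224. It was lower in 5 of 5 samples, by little in untrained sample 1, and it has no test, being one of the genes that define T-gated cells. It was singled out after the values of all 7 were seen. Of the other T cell genes Lck was lower in 4 samples, Thy1 in 3, and Cd3d, Cd3e, Cd3g and Cd2 in 2 of 5. Of all genes fitted with at least 3 cells per class 7.14% were lower in 5 of 5 samples. Cd3e, pooled over samples, had means of 0.398 in the 28 cells and 0.431 in the others. Of the 28 cells 10 were CD8-gated, 3 CD4-gated, 2 above both gates and 13 above neither, against 97, 90, 49 and 80 of the other 316.

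T-gated cells above 1 for Tyrobp were too few for the test, since only trained sample 3 had 5. Over the 10 cells Klrd1 had a mean of 1.40, against 0.141 in the other 334, and by sample 1.29 (1 cell), 2.52 (2 cells), 1.95 (2 cells) and 0.748 (5 cells) in untrained 1 and 2 and trained 2 and 3. Each was above the mean of the other cells of its sample, 0.0907, 0.150, 0.169 and 0.114. Ccl5 had a mean of 1.73 in the 10 cells and 0.574 in the others. Not all genes of this kind were higher. Hcst had 0.692 and 0.353 over all cells, but -0.148 against 0.513 in untrained sample 2. Klrk1 had -0.0277 and 0.0486, and was lower in 3 of the 4 samples with such cells. Of the 10 cells 4 were CD8-gated, 1 CD4-gated and 5 above neither gate. Samples with at least 1 such cell gave 0 of 2914 genes past the threshold by limma (159, or 5.46%, at an unadjusted p under 0.05).

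The lysosomal score of T-gated cells above 1 was compared by sample, since untrained sample 2 has other levels (a mean of -0.512 in T-gated cells, against -0.139 to 0.0553) and holds no T-gated cell above 1 for Apoe or C1qb. For Apoe the median of the 13 cells was above that of the other T-gated cells in 4 of 4 samples with such cells, 0.220 against -0.0880 without untrained sample 2. For C1qb, with 7 cells, it was above in 3 of 4 samples (0.00744 against -0.0855). For Tyrobp it was above in 2 of 4 (-0.175 against -0.0846, on 8 cells without untrained sample 2), and for Fcer1g in 3 of 5 (-0.0837 against -0.0854, on 25 cells). The T cell marker score had medians without untrained sample 2 of 0.145 for Apoe, 0.161 for C1qb, 0.207 for Tyrobp and 0.267 for Fcer1g, against 0.310 to 0.317 in the other T-gated cells. Most samples held 1 to 5 such cells per gene, no difference here was tested, and the part of the lysosomal scores in the other results was not tested.

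CD8-gated cells (Cd8a and Cd8b1 above 0 on average, Cd4 not) and CD4-gated cells, the reverse, were compared within samples. Lysosomal-gated cells were left out and the T cell gate was not applied. The 156 CD8-gated and 138 CD4-gated cells thus include cells in neither range. C1qb was lower in CD8-gated cells of 5 of 5 samples, by 0.185 ± 0.0641 (SE, limma adjusted p = 0.408). Apoe and Tyrobp were lower in 4 of 5, by 0.127 ± 0.0695 and 0.06 ± 0.0602 (adjusted p = 0.498 and 0.709), and Fcer1g was higher in 4 of 5, by 0.0668 ± 0.0637 (adjusted p = 0.714). None of the 4 passed, and 0 of 2923 genes did, with 307 (10.5%) at an unadjusted p under 0.05, and with each score divided by its SD 24 passed. A fall in all 5 samples, as for C1qb, was seen in 8.89% of genes.

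Training was compared over the samples, first in all sorted cells. C1qb had sample means of -0.0166 and 0.0908 in untrained and -0.0226, -0.107 and -0.0708 in trained samples. The trained samples were all below the untrained ones, by a margin smaller than the spread within either group. Its difference was -0.104 ± 0.0342 (SE, limma adjusted p = 0.518). Apoe had -0.220 and -0.108 against -0.235, -0.287 and -0.246, a difference of -0.0919 ± 0.0324 (adjusted p = 0.518). Tyrobp had -0.159 and 0.00562 against -0.134, -0.243 and -0.178, which overlapped (-0.108 ± 0.0440, adjusted p = 0.563). Fcer1g had -0.0308 and 0.0406 against -0.0484, -0.122 and -0.0389 (-0.0746 ± 0.0310, adjusted p = 0.570). None of the 4 passed, and 0 of 2926 genes did, with 226 (7.72%) at an unadjusted p under 0.05. The groups did not overlap, trained lower, for 3 of the 4 genes and for 14% of all genes.

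Without the lysosomal-gated cells of all samples, 41 of 51 of them in untrained sample 2, the differences were 0.117 for C1qb, 0.110 for Apoe, 0.0698 for Tyrobp and 0.0796 for Fcer1g, so each changed sign. Without untrained sample 2 they were smaller and kept their sign (-0.0503, -0.0359, -0.0261 and -0.0389). The lysosomal genes Cst3, Ctss, Ctsd and Ctsb differed in the same direction as the 4 genes, by -0.112, -0.135, -0.154 and -0.120. Shares of cells above 1 gave no call either, though a cut at 1 means different things in samples whose scores spread differently. They were 12.2% ± 13.3 (SD, n = 2) in untrained and 5.16% ± 1.90 (n = 3) in trained samples for C1qb (two-sided exact permutation p = 0.5, where 10 splits allow no p below 0.1). For Apoe they were 9.55% ± 9.57 and 5.76% ± 0.885, for Tyrobp 9.73% ± 10.8 and 3.58% ± 0.843, and for Fcer1g 12.2% ± 7.37 and 8.43% ± 3.64 (exact permutation p = 0.7, 0.4 and 0.6, all adjusted p = 0.7). Without untrained sample 2 the trained minus untrained difference was 2.39, 2.98, 1.5 and 1.49 points in the order named. With each score divided by its SD in the sample the differences were -7.69, -3.03, -2.46 and -1.35 points (exact permutation p = 0.1, the smallest possible, for C1qb and 0.7, 0.8 and 0.8 for the others, adjusted p = 0.4 for C1qb and 0.8 for the others), and the trained share for Tyrobp was 7.96%.

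In T-gated cells alone the order of the samples was another. C1qb had means of 0.0253 and -0.521 in untrained and -0.0838, -0.102 and -0.00285 in trained samples. Apoe had -0.168 and -0.652 against -0.327, -0.274 and -0.127, Tyrobp -0.161 and -0.414 against -0.155, -0.230 and -0.0996, and Fcer1g 0.0359 and -0.339 against -0.0247, -0.0819 and 0.0419. Untrained sample 2 was the lowest sample for each gene, and untrained sample 1 was the highest for C1qb and within the trained range for the others. The groups overlapped for all 4 genes, and did not for 14.6% of all genes. The differences, 0.185 ± 0.134, 0.167 ± 0.127, 0.126 ± 0.0764 and 0.130 ± 0.0989 (SE, limma adjusted p = 0.999 each), did not pass, nor did any of 2919 genes, with 50 (1.71%) at an unadjusted p under 0.05. Without untrained sample 1 each of the 4 passed (0.458, 0.409, 0.253 and 0.318, limma adjusted p = 0.00747, 0.0130, 0.0368 and 0.0153) along with 172 genes in all, and the lone untrained sample was then assumed to vary like the trained ones. Without untrained sample 2 the differences were -0.0881, -0.0745, -0.000613 and -0.0575. None of the 4 genes kept the sign of its difference when each untrained sample was left out in turn.

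**Figure D5:**
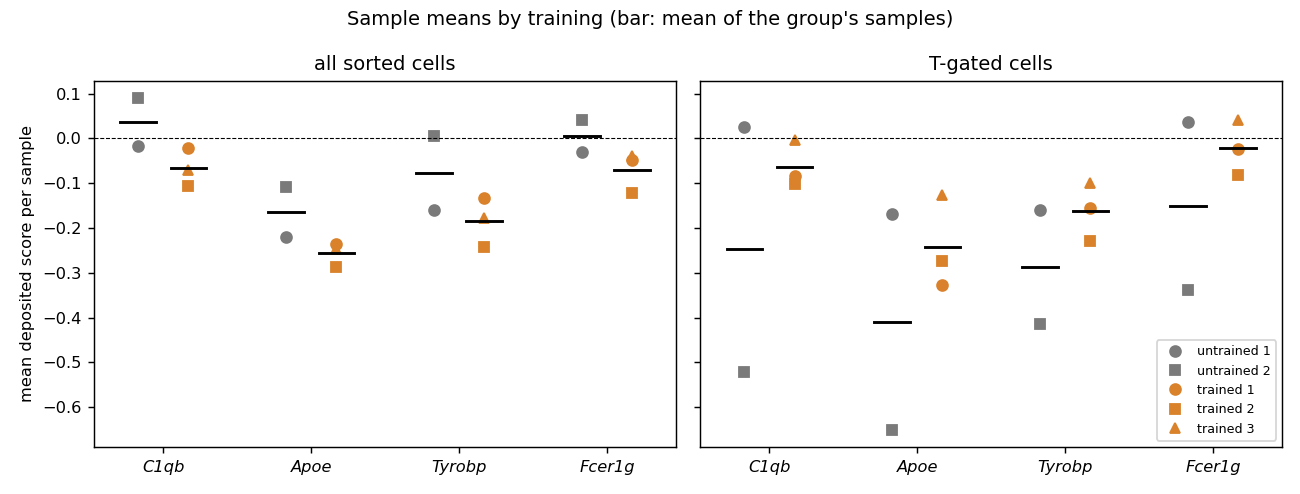
Mean deposited score per sample (vertical axis) of C1qb, Apoe, Tyrobp and Fcer1g in all sorted cells (left) and in T-gated cells (right), with a bar at the mean of each group's samples. Untrained sample 2 is the highest sample on the left and the lowest on the right for each gene.

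The other genes of these pathways did not pass for training either. In all sorted cells 0 of 3 complement genes (C1qbp, Itgb2 and Cr1l, of 22 listed) and 0 of 4 lipid genes (Abca1, Abcg1, Npc2 and Psap, of 23) passed. The same held for 0 of 13 genes of the ITAM list (of 39), which includes Hcst, 0 of 5 natural killer type receptors and 0 of 13 cytotoxic genes. The median differences of these lists, in the order named, were 0.00275, -0.0586, 0.00891, 0.0266 and 0.0177, against -3.99e-05 over all genes. All 4 lipid genes had lower means in trained samples, among them Psap, which codes for the precursor of lysosomal lipid activators (-0.147 ± 0.0377, adjusted p = 0.386). In T-gated cells 0 of the same genes tested passed.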

How the data were processed

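Cells sorted by CD45 and CD3 staining were profiled by SORT-seq in 5 samples, grouped by the treatment in the labels, with each cell assigned by the ending of its column name. Cell Ranger was used, per the submitters' processing notes. The sources used here do not give its version, the genome build, or how scores were normalised and integrated. The deposited table of 2967 rows (2926 genes and 41 spike-ins) holds a score per gene and cell, with 0 whole numbers. In untrained sample 2 the ceiling equals the square root of its cells over 30, the form of clipped residuals. Differences are therefore of scores, not of expression. The table gives no counts, so depth is unknown. A second table, headed by barcodes that name no sample, was not used.

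Mean scores per sample (and class) were fitted over all genes with limma 3.58.1 (R 4.3.3), adjusted by Benjamini-Hochberg at 0.05, with sample as a block between classes and genes that define a class left out. A class needed 5 cells in a sample. Shares between training groups were tested by exact permutation (two-sided, samples relabelled), and the permutation of signs between cytotoxic classes was added after the data were seen. The fits were tested on simulated data. Tables were made with Python 3.11.15, pandas 2.3.3, numpy 2.4.6 and scipy 1.17.1. The alternatives were leaving out each sample, scores divided by their SD, weights by cells, medians over cells, other gates and thresholds, and other cell minimums. The members and gene lists were chosen with earlier results of these data known. Named genes were the 4 members, the gate genes, up to 5 genes per direction past the threshold with 1 sign in every sample (or the 3 with the smallest p where none passed), up to 4 per list by smallest p, and the 5 most like each member. Of these, non-members are named only where a result turns on them. Cd247, Cd3e, Ccl5, Hcst and Klrk1 were named after their values were seen where they describe cells above 1. Promoter sequences come from RefSeq, GRCm38.p6.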

Additional observations from a re-analysis of the deposited data

How the results depend on the processing

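No paired analysis was possible because the replicate numbers of untrained and trained samples were assigned in order and do not mark shared animals or days. Between cell classes sample was already a block. With medians over cells the training difference in all sorted cells was 0.101 for C1qb, 0.0502 for Apoe, 0.0490 for Tyrobp and 0.119 for Fcer1g, against negative values with means. Without lysosomal-gated cells it was 0.117, 0.110, 0.0698 and 0.0796 in the same order, and the differences in share of cells above 1 were 0.0618 points for C1qb, 1.67 for Apoe, -0.485 for Tyrobp and 0.749 for Fcer1g, so Tyrobp alone stayed negative. Leaving out 1 sample in turn gave 0 to 3 genes past the threshold for training in all sorted cells, 0 to 172 in T-gated cells, 39 to 102 between cytotoxic classes and 0 to 3 between CD8-gated and CD4-gated cells. The training differences in T-gated cells then ran from -0.0881 to 0.458 for C1qb, -0.0745 to 0.409 for Apoe, -0.000613 to 0.253 for Tyrobp and -0.0575 to 0.318 for Fcer1g. The differences in share ran from -16.4 to 2.39, -10.6 to 2.98, -13.8 to 1.5 and -8.94 to 1.49 points in the same order. Tyrobp ran from -0.0461 to 0.0158 between cytotoxic classes, and was 0.0653 with a lysosomal limit of 0 and 0.0467 with a cytotoxic gate at 0.5. Medians over cells gave 1 gene for training in T-gated cells, 0 between cytotoxic classes (424 at an unadjusted p under 0.05) and 0 for cells above 1 for Fcer1g (98 unadjusted), where Apoe was at -0.0397, and gave Fcer1g -0.0315 between cytotoxic classes and -0.0082 between CD8-gated and CD4-gated cells. A T cell gate at 0.25 gave 62 genes between cytotoxic classes, and a cytotoxic gate at 0.5 gave 80. For cells above 1 for Fcer1g 0 genes passed with scores divided by SD (108 unadjusted), a threshold of 0.5 (256) or at least 3 cells per class (177), where Apoe was at -0.0806. Klrd1 stayed higher in all of these, at adjusted p values from 0.247 to 0.998. The contrast of CD8-gated with CD4-gated cells called 24 genes with scores divided by SD, 1 with weights by cells, 5 with lysosomal-gated cells kept (Fcer1g then -0.0433) and 5 with a gate at 0.25. The cause was not tested for any of these. Apart from leaving out samples, 157 results stayed the same, 17 values lost their call, 18 values changed sign and 12 counts moved by over 1.5 times. A value stayed the same if it kept its direction and its side of the threshold. A count did so if it moved by at most 1.5 times. With a sample left out, 130 results stayed the same, 4 values gained a call, 9 values changed sign and 7 counts moved. The cytotoxic comparison within CD8-gated cells, Tyrobp above 1 with 5 cells per class, and Fcer1g above 1 without untrained sample 1 or trained sample 3 could not be fitted, since too few samples held enough cells. Depth is unknown, so what it limits is unknown too. The settings with at least 1 or 3 cells per class were chosen after seeing the data.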
